A study of Arabidopsis thaliana with 12 samples.

Results

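The 10 genes described here carry nitrate from uptake to amino acids or take part in nitric oxide metabolism in Arabidopsis thaliana. They are the nitrate transporters NRT1.1 (AT1G12110) and NRT2.1 (AT1G08090), the nitrate reductases NIA1 (AT1G77760) and NIA2 (AT1G37130), the nitrite reductase NIR1 (AT2G15620), the glutamine synthetase GLN2 (AT5G35630), the glutamate synthase GLU1 (AT5G04140), the asparagine synthetase ASN2 (AT5G65010), the non-symbiotic haemoglobin HB1 (AT2G16060) and NOA1 (AT3G47450). They were chosen by locus, by a rule that uses no measured value though earlier results of these data were known, and 15 of the 43603 non-control probes on the array carried their locus names. All 15 probes were well above background on all 12 arrays, so that all 10 genes were among the 23550 genes tested, out of 29030 loci on the array.

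Transcripts were measured on single-colour Agilent arrays with RNA of whole wild-type Col-0 seedlings, 3 arrays for each of 4 treatments. The medium held 3-bromo-7-nitroindazole (3B7N), 7-nitroindazole (7NIT), which lacks the bromo group, 3-bromoindazole (3BRO), which lacks the nitro group, or the solvent dimethyl sulfoxide (DMSO), and each chemical was at 2.5 µM. All seeds lay on that medium in the cold and dark (4 °C) for 3 days before 4 days under constant blue light, at a fluence rate given by the labels as 10 µmol m-2s-1, so no group was grown without the medium's additive or in other light. Whether replicate arrays stand for separate cultures is not given by the labels, so the p-values may measure technical spread alone.

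Plants take up nitrate through membrane transporters, reduce it to nitrite in the cytosol and to ammonium in the plastid, and build ammonium into glutamine and glutamate through the glutamine synthetase and glutamate synthase cycle. In green tissue the plastid steps draw on reductant and ATP from photosynthesis, and many of these genes respond to light and to nitrate. Nitrate reductase can also turn nitrite into nitric oxide, which haemoglobins such as HB1 scavenge. 7-nitroindazole is known as an inhibitor of mammalian nitric oxide synthase, which has no known counterpart in land plants.

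Levels are given as log2 of the processed signal minus the log2 of the array's 75th percentile, so 0 stands for the signal at that percentile, and levels of different genes are not compared. The 75th percentile itself was 1768 to 2205 intensity units on DMSO, 2366 to 2920 on 3BRO, 2770 to 3472 on 7NIT and 3318 to 3761 on 3B7N. Each 3B7N array was thus scaled by a larger value than each DMSO array, and the differences below are relative to that scaling. What sets these percentiles apart was not tested. The share of probes well above background was 77.2% to 84.7% on an array, and 0 spots were saturated. Pairs of arrays correlated across genes at r of 0.979 to 0.993 within treatments and 0.957 to 0.993 between treatments, where genes are not independent replicates. The arrays lay on 3 slides. Slide 1, scanned on the first day, held the 3 DMSO arrays and 3BRO replicate 1. Slide 2, scanned on the second day like slide 3, held 3B7N replicates 1 and 2 with 3BRO replicates 2 and 3, and slide 3 held 3B7N replicate 3 with the 3 7NIT arrays. No 3B7N array thus shared a slide or a scan day with a DMSO array, and an estimate with slide as a block reaches DMSO only through 3BRO. Of the 12 files, that of 3BRO replicate 2 alone gives its signals to only 3 significant digits.

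Seedlings on 3B7N had lower transcript levels of 5 of the 10 genes than seedlings on DMSO, and those 5 cover nitrate reduction (NIA2), nitrite reduction (NIR1), both enzymes of the plastid ammonium cycle (GLN2, GLU1) and asparagine synthesis (ASN2). None of the 10 genes rose by the test, which was limma's two-sided moderated test with Benjamini-Hochberg adjustment over all 23550 genes at a threshold of 0.05. The changes of the 5 genes lay between 1.61-fold (NIR1) and 2.1-fold (ASN2). By the same test 15.7% of all genes were called, 1293 higher and 2404 lower (10.2%), or 1791 higher and 1917 lower after quantile normalisation. The 3B7N arrays of these 5 genes all lay below the 3 DMSO arrays, as those of 19.4% of all genes did. The median change of the 10 genes was -0.56 on the log2 scale, beside -0.02 for all genes tested. With slide as a fixed block 0 of the 10 genes passed, and 1 of 10 did with scan day as a block.

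**Figure D1:**
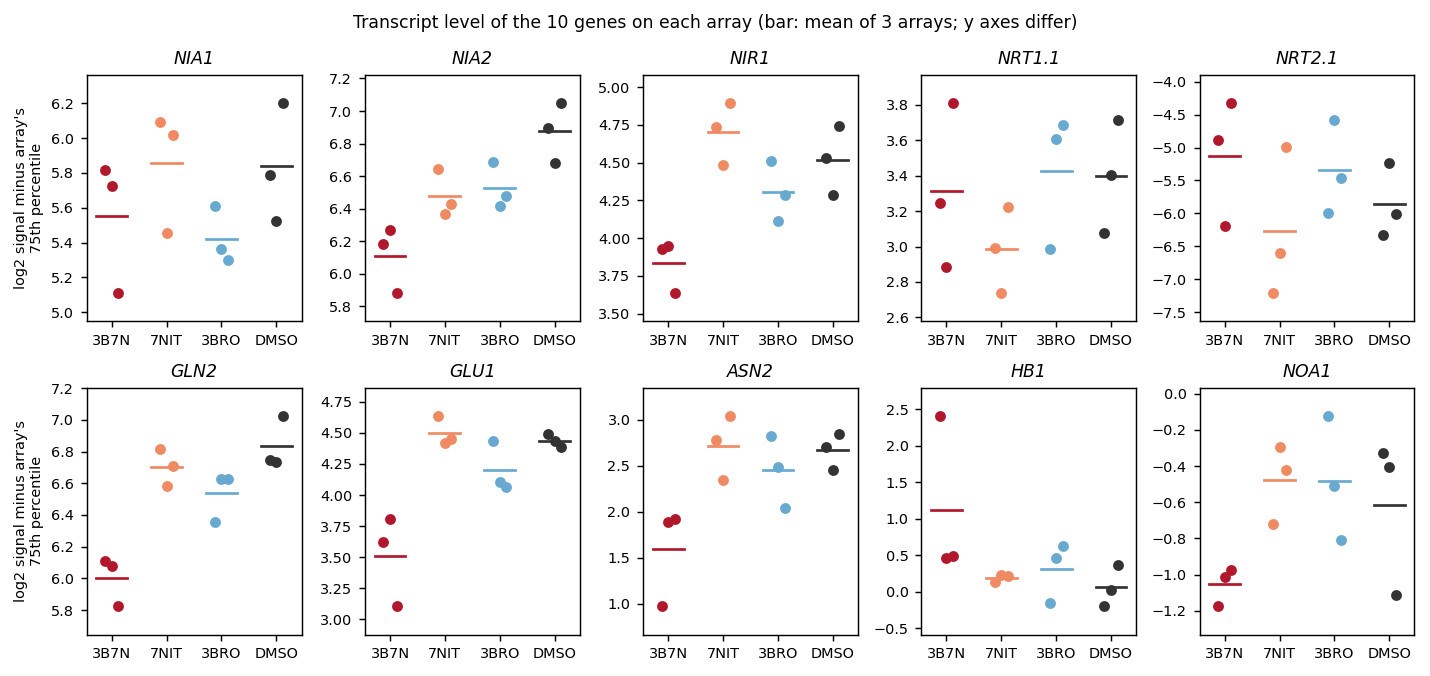
Each panel shows 1 gene, with the log2 signal minus the array's 75th percentile on the y axis (its range differs between panels), the treatments 3B7N, 7NIT, 3BRO and DMSO from left to right, a point per array and a bar at the mean of 3 arrays. The 3B7N points of NIA2, NIR1, GLN2, GLU1 and ASN2 lie below all DMSO points, and a single 3B7N array stands high for HB1.

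NRT1.1, a transporter of nitrate that also acts as a nitrate sensor, had levels of 3.25, 2.88 and 3.81 on 3B7N, 2.99, 2.74 and 3.22 on 7NIT, 2.99, 3.61 and 3.69 on 3BRO, and 3.07, 3.41 and 3.71 on DMSO. The 4 groups overlapped. Its difference for 3B7N minus DMSO was -0.08 (95% confidence interval -0.69 to 0.52, adjusted p = 0.859), and its sign turned after quantile normalisation (0.08). A dimmer NRT1.1 probe, fitted without the spots of 3B7N replicate 2 and 7NIT replicates 1 and 3, which had been marked as outliers, gave 0.31 (adjusted p = 0.581).

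NRT2.1, the main high-affinity nitrate transporter of roots, was dim, with levels of -4.88, -6.19 and -4.33 on 3B7N, -7.21, -6.61 and -4.99 on 7NIT, -6.00, -4.58 and -5.46 on 3BRO, and -6.32, -5.24 and -6.01 on DMSO. The SD of 3 arrays was 0.56 (DMSO) to 1.15 (7NIT) log2 units, and the groups overlapped. The difference for 3B7N minus DMSO, 0.72 (interval -0.65 to 2.1, adjusted p = 0.452), fell to 0.03 after normexp background correction. A change of this gene was therefore not detectable at this signal.

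NIA1, 1 of the 2 nitrate reductases, had levels of 5.82, 5.72 and 5.11 on 3B7N, 6.09, 5.45 and 6.02 on 7NIT, 5.61, 5.36 and 5.30 on 3BRO, and 5.79, 5.52 and 6.2 on DMSO. The 3B7N range overlapped that of each other treatment, and the difference from DMSO was -0.29 (interval -0.83 to 0.26, adjusted p = 0.449), or 0.10 after quantile normalisation. On the slides that held 3B7N with another treatment the sign differed, at 0.44 for 3B7N minus 3BRO on slide 2 and -0.74 for 3B7N minus 7NIT on slide 3.

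NIA2, the other nitrate reductase, which accounts for most nitrate reductase activity in seedlings, had levels of 6.18, 6.27 and 5.88 on 3B7N, 6.64, 6.37 and 6.43 on 7NIT, 6.68, 6.41 and 6.48 on 3BRO, and 6.90, 6.68 and 7.05 on DMSO. The 3B7N arrays lay below all 9 other arrays, and the 7NIT arrays lay below all DMSO arrays (as for 8% of all genes). For this gene and those below, the share of all genes with 3B7N under all 9 other arrays was not counted. It cannot exceed the 14% whose 3B7N arrays lay below all 3BRO arrays. NIA2 fell by 0.76 in 3B7N against DMSO (SE 0.15, adjusted p = 0.00789). It was -0.39 in 7NIT minus DMSO (unadjusted p = 0.0264, adjusted p = 0.608) and -0.35 in 3BRO minus DMSO (unadjusted p = 0.0441, adjusted p = 0.996), and neither passed. The NIA2 difference for 3B7N minus DMSO was -0.41 with slide as a fixed block (adjusted p = 0.4) and -0.26 after quantile normalisation (adjusted p = 0.23), and neither passed.

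NIA2 had 2 further, dimmer probes, and both pointed the same way for 3B7N minus DMSO. The dimmest read -0.34, -0.33 and -0.27 on 3B7N, 0.62, 0.28 and -0.02 on 7NIT, 0.19, 0.78 and 0.57 on 3BRO, and 0.60, 0.73 and 1.14 on DMSO. In a fit over 35735 probes it fell by 1.14 against DMSO (adjusted p = 0.00484), and the middle probe fell by 0.72 (adjusted p = 0.0141). After quantile normalisation the dimmest probe still fell by 1.11 (adjusted p = 0.0052) and the middle probe by 0.49 (adjusted p = 0.041), while the brightest lost its call. The dimmest is the NIA2 probe in the authors' deposited table for 3B7N against DMSO, at a fold of 2.19 and a corrected p of 0.0141, where folds carry no direction. In the fit over 35735 probes, 7NIT minus DMSO was -0.09 by the middle probe (unadjusted p = 0.58) and -0.53 by the dimmest (unadjusted p = 0.0272, adjusted p = 0.527). By both, the 7NIT and DMSO arrays overlapped. Over 14 other settings the gene's difference for 7NIT minus DMSO ran from -0.40 to 0.19, and 0 passed. For 3BRO minus DMSO the middle and dimmest probes gave -0.19 and -0.31, and neither passed.

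NIR1, the plastid enzyme that reduces nitrite to ammonium, had levels of 3.93, 3.94 and 3.64 on 3B7N, 4.74, 4.48 and 4.89 on 7NIT, 4.51, 4.12 and 4.28 on 3BRO, and 4.53, 4.29 and 4.75 on DMSO. All 3B7N arrays lay below all 9 others. NIR1 fell by 0.68 against DMSO (SE 0.17, adjusted p = 0.0226). It kept its call in 8 of 14 other settings, and among the 6 that lost it were normexp correction (-0.57, adjusted p = 0.062), quantile normalisation (-0.48, adjusted p = 0.082) and slide as a fixed block (-0.27, adjusted p = 0.64). The call was also lost in 3 of 12 fits without 1 array, those without 3B7N replicate 3, DMSO replicate 1 or DMSO replicate 3 (adjusted p = 0.07, 0.068 and 0.076).

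GLN2, the plastid glutamine synthetase that binds ammonium into glutamine, had levels of 6.11, 6.08 and 5.82 on 3B7N, 6.82, 6.58 and 6.71 on 7NIT, 6.35, 6.63 and 6.62 on 3BRO, and 6.75, 6.73 and 7.02 on DMSO. The 3B7N arrays again lay below all 9 others, and the 3BRO arrays lay below all DMSO arrays (as for 5.75% of all genes). GLN2 fell by 0.83 in 3B7N against DMSO (SE 0.14, adjusted p = 0.00356). The difference was -1.01 with slide as a fixed block (adjusted p = 0.059) and -0.33 after quantile normalisation (adjusted p = 0.071). A dimmer GLN2 probe, which read 1.65, 1.47 and 1.5 on 3B7N and 2.39, 2.54 and 2.73 on DMSO, fell by 1.01 (adjusted p = 0.0104) and by 0.94 after quantile normalisation (adjusted p = 0.015). It is listed in the authors' deposited table for 3B7N at a fold of 2.01 (corrected p of 0.0136).

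**Figure D2:**
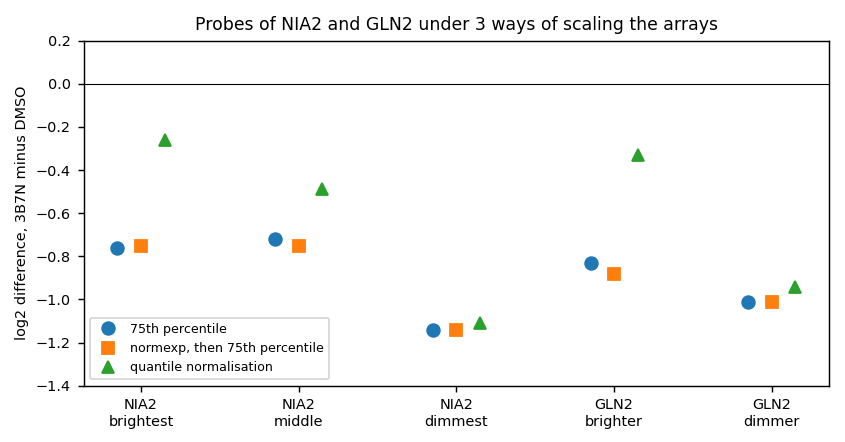
The log2 difference for 3B7N minus DMSO is on the y axis for the 3 NIA2 probes and the 2 GLN2 probes on the x axis, with a marker for each of 3 ways of scaling the arrays. After quantile normalisation the brightest probe of each gene lies nearer 0 (-0.26 for NIA2, -0.33 for GLN2), while the dimmest NIA2 probe (-1.11) and the dimmer GLN2 probe (-0.94) stay within 0.1 of their value at the 75th percentile.

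GLU1, the ferredoxin-dependent glutamate synthase that completes the cycle in photosynthetic tissue, had levels of 3.62, 3.81 and 3.11 on 3B7N, 4.63, 4.42 and 4.45 on 7NIT, 4.43, 4.11 and 4.07 on 3BRO, and 4.49, 4.44 and 4.38 on DMSO. The 3B7N arrays lay below all 9 others. GLU1 fell by 0.92 in 3B7N against DMSO (SE 0.18, adjusted p = 0.00677), and of the 5 genes it alone passed after quantile normalisation by the probe that stands for the gene (-0.73). With slide as a fixed block the difference was -0.37 (adjusted p = 0.37).

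ASN2, which moves the amide nitrogen of glutamine onto asparagine, had levels of 0.97, 1.89 and 1.93 on 3B7N, 2.77, 2.35 and 3.04 on 7NIT, 2.83, 2.49 and 2.04 on 3BRO, and 2.7, 2.46 and 2.84 on DMSO. The 3B7N arrays lay below all 9 others, with 3B7N replicate 1 lowest. ASN2 fell by 1.07 in 3B7N against DMSO (SE 0.29, adjusted p = 0.0308). It kept its call in 8 of 14 other settings. The 6 that lost it were normexp correction (-0.97, adjusted p = 0.056), quantile normalisation (-0.98, adjusted p = 0.051), slide as a fixed block (-0.68, adjusted p = 0.49), scan day as a block (-0.51, adjusted p = 0.61), a fit of only the groups compared (adjusted p = 0.069) and adjustment over the 7 comparisons together (adjusted p = 0.067). The call was also lost in 3 of 12 fits without 1 array, those without 3B7N replicate 1 (-0.76, adjusted p = 0.085), DMSO replicate 1 (-1.05) or DMSO replicate 3 (-0.98).

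HB1, a haemoglobin that oxidises nitric oxide to nitrate, had levels of 2.41, 0.47 and 0.49 on 3B7N, 0.14, 0.23 and 0.21 on 7NIT, -0.15, 0.46 and 0.63 on 3BRO, and -0.20, 0.03 and 0.37 on DMSO. The 3B7N arrays all lay above the DMSO arrays, as 15% of all genes did, but 2 of them by little and 3B7N replicate 1 by far. The difference of 1.06 (interval 0.08 to 2.03) did not pass (adjusted p = 0.132), and without 3B7N replicate 1 it was 0.41 (adjusted p = 0.28). The dimmer HB1 probe had the same array on top, with -0.93, -3.04 and -2.96 on 3B7N and -3.34, -3.03 and -2.81 on DMSO.

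NOA1, a plastid GTPase first described as a nitric oxide synthase and named for its link to nitric oxide, had levels of -1.18, -1.01 and -0.97 on 3B7N, -0.72, -0.30 and -0.42 on 7NIT, -0.12, -0.51 and -0.81 on 3BRO, and -0.33, -0.41 and -1.11 on DMSO. The 3B7N arrays lay below the 7NIT and 3BRO arrays, while DMSO replicate 3 fell among them. The difference for 3B7N minus DMSO was -0.44 (interval -0.95 to 0.07, adjusted p = 0.222) and did not pass.

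Neither 7NIT nor 3BRO gave a call for any of the 10 genes against DMSO (0 of 10 each by limma, with 1 of 10, NIA2 by its brightest probe, at an unadjusted p under 0.05 in each). Over all genes the share called was 0.0255% for 7NIT and 0.00425% for 3BRO. Within slide 1, where 1 3BRO array stood beside the 3 DMSO arrays, NIA2 differed by -0.19 and GLN2 by -0.48. There NIR1 differed by -0.009, GLU1 by -0.002 and ASN2 by 0.158. Intervals against DMSO ran from -0.34 to 0.46 for GLU1 on 7NIT and from -0.44 to 0.18 for GLN2 on 7NIT by its brighter probe. For ASN2 they ran from -0.59 to 0.69 on 7NIT and from -0.86 to 0.42 on 3BRO. The estimate for 3B7N by the same probe lies outside each of these intervals, but it has an error of its own and shares the DMSO arrays. For ASN2 its own interval was -1.71 to -0.43, and the direct difference for 3B7N minus 3BRO did not pass by limma (-0.86, adjusted p = 0.104). The dimmer GLN2 probe differed by -0.55 in 7NIT minus DMSO (interval -1.02 to -0.07, unadjusted p = 0.0279, adjusted p = 0.527), and its interval holds its own change of -1.01 with 3B7N. The authors' deposited table lists 1779 probes for 3B7N, with 2 probes of the 10 genes among them, and 14 for 7NIT, with 0 among them.

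**Figure D3:**
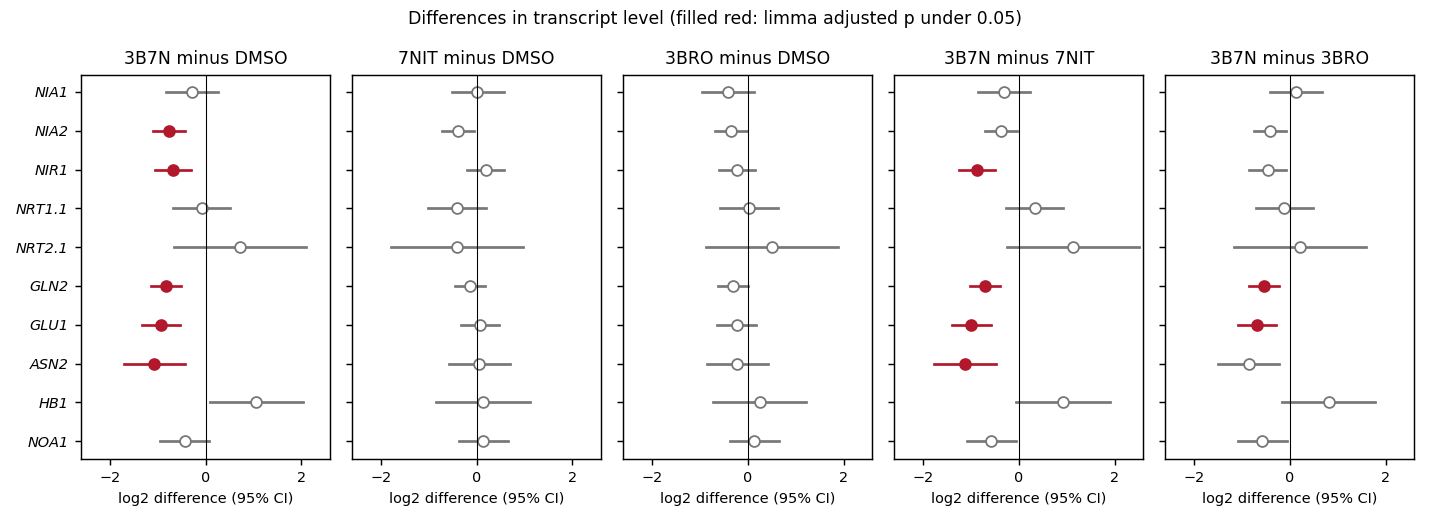
Points are log2 differences and lines their 95% confidence intervals for the 10 genes (rows) in 5 comparisons (panels), and filled red points passed the adjusted threshold. NIA2, NIR1, GLN2, GLU1 and ASN2 passed below 0 for 3B7N minus DMSO, 4 of them passed for 3B7N minus 7NIT, GLN2 and GLU1 passed for 3B7N minus 3BRO, and no gene passed for 7NIT or 3BRO minus DMSO.

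The 3 chemicals were at the same dose and time, so their levels can be set against each other in 3 pairs. With 3B7N, which differs from 7NIT by the bromo group, NIR1, GLN2, GLU1 and ASN2 were lower than with 7NIT, 4 of 10 genes where 18.6% of all genes were called and 12.5% were lower. Of the 10 genes 6 had all 3B7N arrays below all 7NIT arrays, beside 24.5% of all genes. NIR1 was lower by 0.87 on the log2 scale (interval of the difference -1.25 to -0.49, adjusted p = 0.007) and GLN2 by 0.70 (-1.01 to -0.39, adjusted p = 0.00783). GLU1 was lower by 0.99 (-1.38 to -0.59, adjusted p = 0.00464) and ASN2 by 1.12 (-1.76 to -0.48, adjusted p = 0.023). NIR1, GLN2 and GLU1 kept their calls in each of 14 other settings and in each of 12 fits without 1 array. That includes slide as a fixed block, where the 3 differences were -1.07, -0.88 and -1.39, the same as those within slide 3 (1 3B7N array against 3 7NIT arrays). These GLN2 values are those of its brighter probe. The dimmer GLN2 probe did not pass for 3B7N minus 7NIT (-0.47, interval -0.94 to 0.01, adjusted p = 0.159). ASN2 kept its call in 11 of 14 other settings and lost it with slide as a fixed block (-0.79, adjusted p = 0.25), in a fit of only the groups compared and with adjustment over the 7 comparisons together (adjusted p = 0.057 for both). It was also lost in 3 of 12 fits without 1 array, those without 3B7N replicate 1 (-0.81), 7NIT replicate 1 (-1.10) or 7NIT replicate 3 (-0.96).

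**Figure D4:**
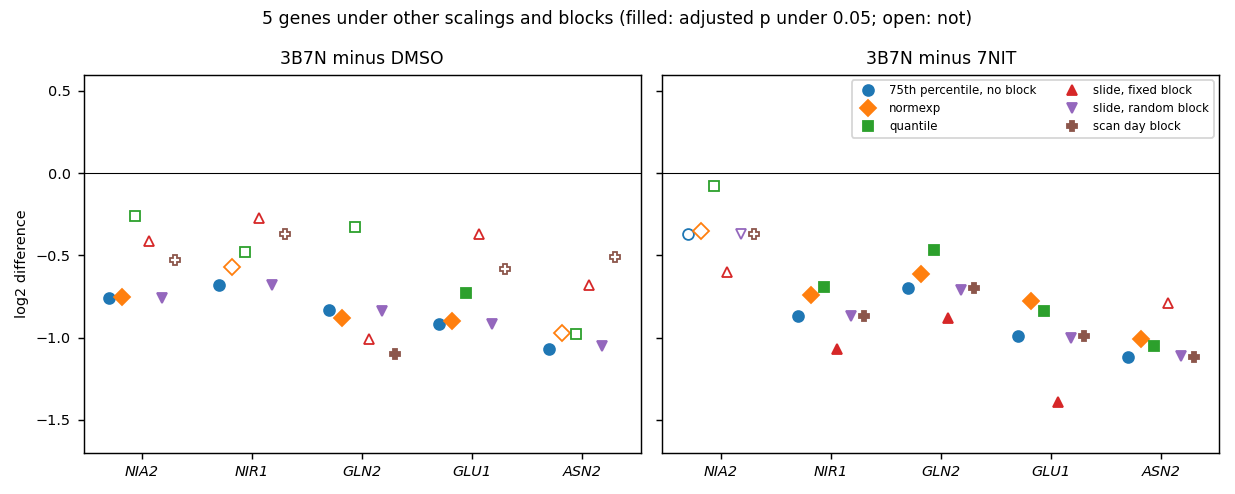
The log2 difference (y axis) of the 5 genes that fell with 3B7N against DMSO is shown for 6 settings of scaling and block, for 3B7N minus DMSO on the left and 3B7N minus 7NIT on the right, with filled markers past the adjusted threshold. NIR1, GLN2 and GLU1 are filled in all 6 settings on the right, and with slide as a fixed block none of the 5 genes is filled on the left.

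Against 3BRO, from which it differs by the nitro group, 3B7N gave lower levels of GLN2 by 0.53 (interval -0.84 to -0.22, adjusted p = 0.0466) and of GLU1 by 0.69 (-1.09 to -0.29, adjusted p = 0.0428), 2 of 10 genes where 7.52% of all genes were called and 4.79% were lower. Here too 6 of the 10 genes had all 3B7N arrays below all 3BRO arrays, beside 14% of all genes. Both lay close to the threshold, and each kept its call in 6 of 14 other settings. The dimmer GLN2 probe was lower by 0.99 (adjusted p = 0.021). Within slide 2, which held 2 arrays of each, the differences were -0.53 for GLN2, -0.37 for GLU1, -0.26 for NIR1, -0.22 for NIA2 and -0.83 for ASN2. NIA2 did not pass for either pair by its brightest probe (-0.41, adjusted p = 0.136, for 3B7N minus 3BRO and -0.37, adjusted p = 0.115, for 3B7N minus 7NIT). By the mean of its 3 probes it passed for both, at -0.59 (adjusted p = 0.043) and -0.53 (adjusted p = 0.036). For each pair that was the only 1 of 14 other settings in which NIA2 passed, and it passed in 0 of 12 fits without 1 array.

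Between 7NIT and 3BRO 0 of 10 genes passed by limma (1 of 10, NIR1, at an unadjusted p under 0.05), where 0.0212% of all genes did. The NIR1 difference for 7NIT minus 3BRO was 0.40 (interval 0.02 to 0.78, adjusted p = 0.515), and that of NOA1 had an interval of -0.51 to 0.51. The comparisons with 3B7N share its 3 arrays, and those with DMSO share the 3 DMSO arrays. The interaction sets the 3B7N difference from 3BRO against the 7NIT difference from DMSO, the first minus the second, so that 0 means additive log2 changes, and 0 of 10 genes passed it where 0.658% of all genes did. GLU1, NIR1 and ASN2 had an unadjusted p of 0.0133, 0.0218 and 0.0493, all with values below 0 (-0.75, -0.65 and -0.91), and adjusted p of 0.18, 0.218 and 0.3.

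The marker lists of organs moved in the same samples. All 8 green tissue markers and all 12 root markers were tested, and 7 of 8 and 6 of 12 fell with 3B7N against DMSO while 0 rose, beside 10.2% of all genes that fell. The median change was -0.64 for the green tissue markers and -0.48 for the root markers. With slide as a fixed block 0 of 8 and 4 of 12 fell, after quantile normalisation 1 of 8 and 3 of 12, after normexp correction 3 of 8 and 1 of 12, and without 1 array 3 to 7 of 8 and 1 to 7 of 12. The lowest of these counts came without DMSO replicate 3 for both lists, and for the root list also without DMSO replicate 1 or 3B7N replicate 2. Summed on the linear scale over 7 green tissue genes with a value on each array, the level was 565 to 694 times the 75th percentile signal on 3B7N, 727 to 873 on 7NIT, 779 to 912 on 3BRO and 888 to 1200 on DMSO. Summed over 11 root genes it was 94.5 to 113 on 3B7N, 106 to 120 on 7NIT, 119 to 135 on 3BRO and 126 to 152 on DMSO. The 75th percentile signal that these sums are relative to ran the other way, at 3318 to 3761 on 3B7N and 1768 to 2205 on DMSO. The marker signal before this scaling was not compared, so the sums do not show less marker signal as such. Most of the root sum came from 1 gene, PYK10, whose log2 levels were 6.4, 6.2 and 6.4 on 3B7N and 6.8, 6.7 and 7.0 on DMSO. The part of the markers in the changes of the 10 genes was not tested. In RNA of whole seedlings fewer cells of a type and less RNA per cell cannot be told apart.

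The 5 genes that fell followed each other across the 12 arrays, with Pearson r of 0.898 for NIR1 and GLU1, 0.863 for GLN2 and GLU1, 0.846 for NIA2 and GLN2 and 0.661 for NIA2 and ASN2, the lowest of their pairs. ASN2 and HB1 ran in opposite directions (r = -0.854), with 3B7N replicate 1 lowest for ASN2 and highest for HB1. These values are descriptions over arrays that share treatments and slides. The 5 genes were grouped because each was lower on the same 3B7N arrays, so positive r among them follows in part from that choice. Among 23365 genes with a value on each array, the highest r with NIA2 was that of CP5 (0.979), followed by GAPA (0.968) and GAPB (0.956), subunits of the plastid glyceraldehyde-3-phosphate dehydrogenase of the Calvin cycle. NIR1 was most like Tic20-I (0.976), a protein of the plastid import machinery, AT2G20270 (0.971) and AT5G58990 (0.967). NIA1 had lower values, with ERF12 (0.898), AT3G06270 (0.897) and AT2G01020 (0.889).

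Further genes of the pathway were taken from 5 lists. Tested were 17 genes of nitrate transport, 22 of ammonium and amides, 14 of cofactors, 27 of signalling and 9 of nitric oxide. Of these genes 21 passed for 3B7N against DMSO, 7 higher and 14 lower, where 5.49% of all genes rose and 10.2% fell. No list was tested against these shares. With 7NIT or 3BRO against DMSO, 0 genes of the 5 lists passed by limma. At an unadjusted p under 0.05 there were 4 with 7NIT and 1 with 3BRO among nitrate transporters, 0 and 4 among ammonium and amide genes, 1 and 1 among cofactor genes, 0 and 0 among signalling genes and 0 and 1 among nitric oxide genes.

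**Figure D5:**
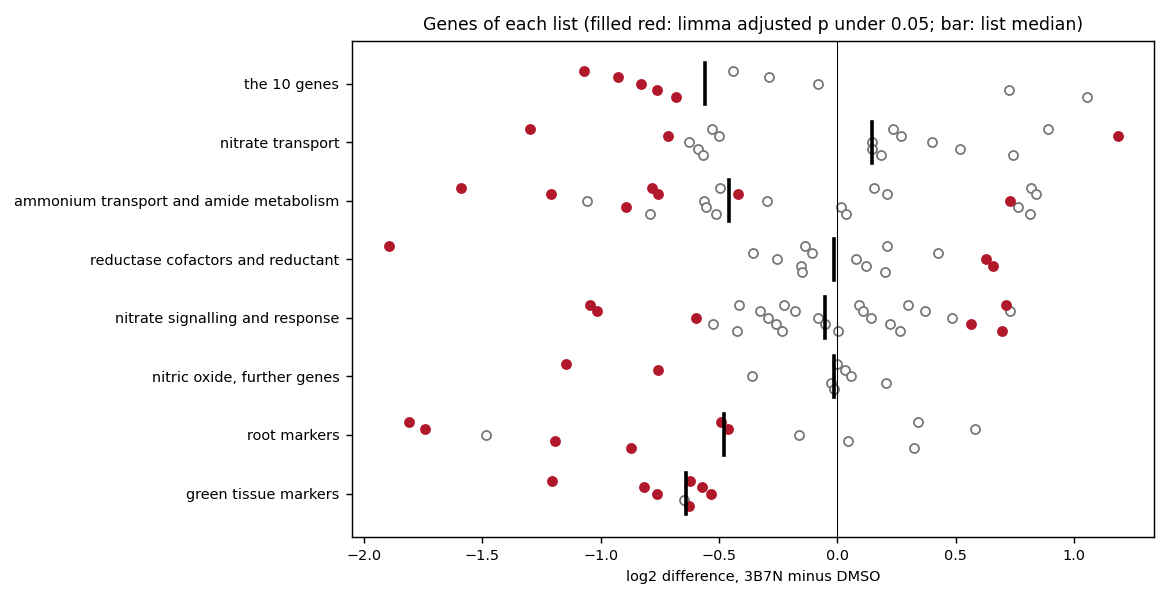
Each point is a gene, placed by its log2 difference for 3B7N minus DMSO (x axis) in the row of its list, filled red where it passed the adjusted threshold, with a bar at the list's median. The 10 genes have a median of -0.56. The ammonium transport and amide metabolism list (-0.46), the root markers (-0.48) and the green tissue markers (-0.64) also lie below 0. The cofactor (-0.01), signalling (-0.05) and nitric oxide (-0.02) lists lie near 0, and the nitrate transport list (0.15) lies above it.

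Of 17 tested nitrate transport genes 1 rose and 2 fell with 3B7N (median 0.15). The nitrate transporter gene NPF6.4 had levels of 0.29, 1.07 and 1.22 on 3B7N, 2.37, 1.68 and 2.08 on 7NIT, 1.72, 1.68 and 1.64 on 3BRO, and 2.08, 2.08 and 2.31 on DMSO, and fell by 1.3 against DMSO (SE 0.24, adjusted p = 0.00532). NPF7.3, which loads nitrate into the xylem, fell by 0.72 (adjusted p = 0.0322). SLAH2, an anion channel of the SLAC1 family, rose by 1.19 (adjusted p = 0.0192) but was dim and stood at 0.57 after normexp correction (adjusted p = 0.46). NRT3.1, the partner protein of NRT2.1, was at 0.19 (adjusted p = 0.707). NRT2.2, NRT2.3, NRT2.4, NRT2.5, NRT2.6 and NPF2.12 did not pass the background filter and were not tested.

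Of 22 genes of ammonium transport and amide metabolism 1 rose and 6 fell with 3B7N (median -0.46). The ammonium transporter gene AMT1;2 had levels of 0.45, 0.66 and 1.00 on 3B7N, 2.66, 1.74 and 2.6 on 7NIT, 1.75, 1.86 and 1.67 on 3BRO, and 2.35, 2.17 and 2.36 on DMSO. It fell by 1.59 against DMSO (SE 0.23, adjusted p = 0.00172), and it was also lower with 3B7N than with 7NIT (-1.63, adjusted p = 0.00148) and than with 3BRO (-1.05, adjusted p = 0.0229). AMT1;4, another ammonium transporter, fell by 1.21 (adjusted p = 0.0263) but was dim. Its levels were -6.2, -5.6 and -5.9 on 3B7N and -4.0, -5.3 and -4.7 on DMSO. The genes of the cytosolic glutamine synthetases GLN1;4 and GLN1;1 fell by 0.89 (adjusted p = 0.00759) and 0.78 (adjusted p = 0.0113). GDH1, a glutamate dehydrogenase, rose by 0.73 (adjusted p = 0.0201). ASN1, the asparagine synthetase known for its induction in the dark, read 5.23, 4.55 and 4.01 on 3B7N against 3.27, 3.81 and 4.28 on DMSO, and its difference of 0.81 did not pass (adjusted p = 0.206). The other 2 calls, GLN1;2 and GLB1 (AT4G01900, the PII signal protein), were lower.

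Of 14 genes for the cofactors and reductant of the reductases 2 rose and 1 fell with 3B7N (median -0.01). MOT1, the molybdate transporter, supplies the metal of the molybdenum cofactor that nitrate reductase needs. Its levels were -4.35, -3.41 and -3.38 on 3B7N, -1.94, -2.59 and -2.14 on 7NIT, -2.55, -2.38 and -2.30 on 3BRO, and -1.94, -1.89 and -1.64 on DMSO. The 3B7N arrays lay below all 9 others, MOT1 fell by 1.90 against DMSO (SE 0.26, adjusted p = 0.00113), and it passed with slide as a fixed block as well (-2.28, adjusted p = 0.04). CNX2, which acts in the first step of cofactor synthesis, rose by 0.63 (adjusted p = 0.0156), and G6PD2, a plastid glucose-6-phosphate dehydrogenase, by 0.66 (adjusted p = 0.00671).

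Of 27 genes of nitrate signalling and response 3 rose and 3 fell with 3B7N (median -0.05). The transcription factor genes NLP2, of the family of nitrate-responsive NIN-like proteins, and HHO1 fell by 1.04 (adjusted p = 0.0394) and 1.02 (adjusted p = 0.0427). With slide as a fixed block NLP2 stood at -0.44 (adjusted p = 0.67). The protein kinase genes CPK10 and CIPK23, the second of which phosphorylates NRT1.1, rose by 0.71 (adjusted p = 0.00674) and 0.69 (adjusted p = 0.0106).

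Of 9 further nitric oxide genes 0 rose and 2 fell with 3B7N (median -0.02). ARGAH2, an arginase, had levels of 0.26, 0.35 and 0.05 on 3B7N, 1.46, 1.38 and 1.52 on 7NIT, 0.92, 0.96 and 1.13 on 3BRO, and 1.38, 1.28 and 1.43 on DMSO. ARGAH2 fell by 1.15 against DMSO (SE 0.12, adjusted p = 0.00038), by 1.18 with slide as a fixed block (adjusted p = 0.026) and by 1.27 with a scan day block (adjusted p = 0.02), and was lower with 3B7N than with 3BRO (-0.79, adjusted p = 0.00516) and 7NIT (-1.24, adjusted p = 0.000293). HB2, a second haemoglobin, fell by 0.76 (adjusted p = 0.0374) and stood at -0.18 with slide as a fixed block (adjusted p = 0.81). GSNOR1, which removes S-nitrosoglutathione, was at -0.02 (interval -0.34 to 0.30, adjusted p = 0.95).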

How the data were processed

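The authors deposited spot intensity values. The software was Agilent Feature Extraction (10.7.3.1 in the submitters' processing notes). Per the file headers, its processed signal is a linear intensity after background correction. The authors' deposited table gives linear fold ratios of 2 or more, without direction, and corrected p-values, with the method of correction not given in the sources.

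Control spots and spots marked as non-uniform or population outliers were left out, and the level used is log2 of the deposited processed signal less that of the 75th percentile on the same array. Probes well above background on all 3 arrays of a group, with a value in every group, were kept, and the brightest stood for its gene, which matters for 6599 genes with several. All 12 arrays entered 1 fit with limma 3.58.1 (lmFit, eBayes) in R 4.3.3 with the data.table package (version 1.17.8), with Benjamini-Hochberg adjustment separately for each of 7 comparisons, and the fit was tested on simulated data. The number of arrays limits the precision. Of 126 loci in the lists, 125 were found in RefSeq's gene names for TAIR10.1, used for names alone because the file headers name an older build. Sequences of the genes were not used here. The cry1cry2 genotype named in the series' design text was not analysed here. Probes of close relatives such as the GLN1 or NIA genes may bind more than 1 transcript.

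The 10 genes, the further lists and the markers were chosen with earlier results of these data known. Named genes were all 10 genes with all their probes, and in each further list up to 4 genes of largest change against DMSO among those that passed without overlap of the arrays, plus GSNOR1, HB2, ASN1, NRT2.2, NRT3.1 and GLN1;1. The 3 genes most like NIA1, NIA2 and NIR1 were also named. GLN1;2 and GLB1, and the genes in the part on results for a closer look, lie outside this rule and were chosen after their values were seen. Alternatives were normexp background correction (offset 50), quantile normalisation and median scaling, other filters and probe rules, slide, scan day and replicate blocks, other adjustments and fits, and leaving out each array. Normexp used the median signal, because the files hold no mean signal as had been planned.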

Additional observations from a re-analysis of the deposited data

Results flagged for a closer look

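For 2 genes of the further lists, the arrays of 1 pair of treatments separated in one direction and those of the counterpart pair in the opposite direction. They were found by a search of all listed genes, and the share of all genes with this pattern was not counted. NPF7.2, a nitrate transporter that returns nitrate from the xylem, was dim, with levels of -2.84, -3.77 and -3.65 on 3B7N, -4.90, -4.28 and -4.48 on 7NIT, -3.82, -4.23 and -3.87 on 3BRO, and -3.88, -4.05 and -3.89 on DMSO. All 3B7N arrays lay above all 3BRO arrays, while all 7NIT arrays lay below all DMSO arrays, and the interaction was 1.17 (unadjusted p = 0.0065, limma adjusted p = 0.13), which did not pass. SIRB, a ferrochelatase of sirohaem, the cofactor of nitrite reductase, had levels of 0.40, 0.59 and 0.45 on 3B7N, 0.91, 1.01 and 1.02 on 7NIT, 0.97, 0.86 and 0.71 on 3BRO, and 0.89, 0.75 and 0.87 on DMSO. All 3B7N arrays lay below all 3BRO arrays, while all 7NIT arrays lay above all DMSO arrays, and the interaction was -0.51 (unadjusted p = 0.01, limma adjusted p = 0.16), which did not pass either. Some of these gaps were narrow, with -3.77 on 3B7N against -3.82 on 3BRO for NPF7.2 and 0.91 on 7NIT against 0.89 on DMSO for SIRB.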

How the results depend on the processing

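The count of 5 of 10 genes called for 3B7N minus DMSO was 3 after normexp correction, 1 after quantile normalisation, 0 with slide as a fixed block, 1 with scan day as a block, 3 in a fit of only the groups compared, 3 with adjustment over the 7 comparisons together, and 3 to 5 without 1 array, with 3 without DMSO replicate 1 or DMSO replicate 3. The 5 genes kept their direction in all these settings. For 3B7N minus 3BRO the count of 2 was 0 after normexp correction, quantile normalisation or median scaling, without a filter on dim probes, with slide as a fixed block, in a fit of only the groups compared and with adjustment over the 7 comparisons, 1 with scan day as a block, and 0 to 1 without 1 array. It was 0 without 3B7N replicate 1 or 3, any 7NIT replicate, 3BRO replicate 2 or 3, or DMSO replicate 1 or 2, and 1 without 3B7N replicate 2, 3BRO replicate 1 or DMSO replicate 3. Of the 5 further lists, 21 genes passed for 3B7N minus DMSO, against 11 after normexp correction, 5 with slide as a fixed block, 2 with scan day as a block, 11 in a fit of only the groups compared and 12 to 22 without 1 array (12 without DMSO replicate 3, 14 without DMSO replicate 1). For 7NIT minus DMSO 1 gene of the lists passed with slide as a fixed block, against 0. The cause of these shifts was not tested.

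Over all genes 3697 were called for 3B7N minus DMSO, against 1726 after normexp correction, 770 with slide as a fixed block, 609 with scan day as a block, 1902 in a fit of only the groups compared and 2330 with adjustment over the 7 comparisons. Quantile normalisation moved the split of called genes to 1791 higher and 1917 lower (48.3% higher), against 1293 and 2404 (35%) with the 75th percentile. Normexp correction moved the median of all genes to -0.15 for 3B7N minus DMSO and -0.24 for 3B7N minus 7NIT.

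The labels do not say that a replicate number marks a shared batch. Deviations of same-numbered arrays correlated at -0.16 to 0.44 over 18 pairs, 11 of them over 0.1, and 9 of 12 arrays correlated best with their own number, a hint of pairing from the data. All 3 pairs were over 0.1 for 3BRO with DMSO and for 7NIT with 3BRO, where 0 of the 10 genes passed with the replicate block as without it. In the other comparisons at least 1 pair was not, and the numbers were not taken as pairs. With the replicate block 5 genes passed for 3B7N minus DMSO, 4 for 3B7N minus 7NIT and 1 for 3B7N minus 3BRO, 25 genes of the lists passed for 3B7N minus DMSO, and 4329 genes did over the whole array.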
